A study of Mus musculus with 4 samples.

Results

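The B7 family and costimulatory genes of activated mouse B cells were taken as every probe whose gene name in the scanner files was Cd80, Cd86, Icosl, Cd274, Pdcd1lg2, Cd44, Cd83, Slamf1, Slamf7 or Ly9. This gave 10 genes and 18 probes out of 29875 genes and 39429 probes on the array. All 10 genes, through 16 of the 18 probes, passed the detection filter (well above background on 2 arrays or more) and were tested, among 15969 genes and 20862 probes in all. The other 2 probes, 1 of Cd86 and 1 of Icosl, were too dim to test.

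The arrays compared splenic B cells of Ackr4-deficient mice (labelled Ackr4ko) with those of C57BL/6 mice (labelled WT); Ackr4 encodes an atypical chemokine receptor that takes up chemokines without the usual G protein signalling. After magnetic purification, B cells of male mice were kept for 3 days under anti-IgM and anti-CD40, each at 10 µg/mL, stimuli that every group received, so that no resting cells were measured. Each genotype had 2 arrays, 1 from each of 2 independent experiments with different donor mice. In experiment 1 the mice were 73 days (Ackr4ko) and 77 days (WT) old, and in experiment 2 they were 71 days (Ackr4ko) and 74 days (WT) old. The labels do not say in which cells Ackr4 was deleted, or whether animals were pooled. With 2 arrays against 2, an exact two-sided permutation test of a single gene cannot go below p = 0.333, so the tests came from limma, a linear model that borrows the spread from all genes.

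The genotype labels of the files conflict. In the authors' deposited value table, each of the 4 columns matched the scanner array that carries the opposite genotype label within its experiment. Across probes the correlations with that array were between 0.999 and 1.00, and with the array of its own label between 0.979 and 0.986. Neither of the 2 Ackr4 probes was well above background on any array, so that the deleted gene checks no label. Each genotype is therefore written as the scanner files label it ("arrays labelled Ackr4ko"), and every genotype difference below changes sign if the value table has the labels right. Differences between the experiments do not depend on this.

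The 4 arrays lay on 1 slide, and 42.2% to 54.9% of probes were well above background, lowest on the array labelled WT in experiment 2, which also had the most spots flagged as outliers (6.24%, against 1.79% to 2.12% on the others). All 10 B cell markers examined were well above background on all 4 arrays. In RNA of whole cultures, fewer cells of a type and less RNA per cell cannot be told apart. Over all tested genes the median log2 difference, labelled Ackr4ko minus WT, was -0.04 in experiment 1 and 0.23 in experiment 2. Levels below are log2 signals scaled to each array's 75th percentile, and differences are log2 differences unless a fold is named.

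B cells that have bound antigen show it to T cells on MHC class II, and the ligands measured here decide what signal goes with it. CD80 and CD86 bind CD28, which stimulates the T cell, and CTLA-4, which restrains it; ICOS ligand binds ICOS on follicular helper T cells. PD-L1 (Cd274) and PD-L2 (Pdcd1lg2) bind the inhibitory receptor PD-1. CD44 is a hyaluronan receptor and CD83 keeps MHC class II and CD86 on the surface; both are raised on activated B cells. SLAM family receptors (Slamf1, Slamf7, Ly9) mostly bind themselves on the neighbouring cell and signal through small SH2 adaptors.

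Probes of the same gene can read different parts of its transcript, which mattered for Cd80 and Cd44. The 5 probes below lie in coding sequence (the Cd44 probe from base 2614 runs past the stop codon), and each was tested on its own. They are given 5′ to 3′ in the sense of the transcript, with their mm9 positions, Cd80 on the plus strand and Cd44 and Ly9 on the minus strand.
Cd80 probe from transcript base 872, chr16:38479343-38479402: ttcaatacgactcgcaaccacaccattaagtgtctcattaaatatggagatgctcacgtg
Cd44 probe from transcript base 1777, chr2:102677971-102678030: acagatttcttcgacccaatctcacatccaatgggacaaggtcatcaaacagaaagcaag
Cd44 probe from transcript base 1965, chr2:102672645-102672704: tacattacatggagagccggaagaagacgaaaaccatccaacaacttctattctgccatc
Cd44 probe from transcript base 2614, chr2:102654278-102654337: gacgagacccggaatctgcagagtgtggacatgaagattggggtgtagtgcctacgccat
Ly9 probe from transcript base 1925, chr1:173523555-173523614: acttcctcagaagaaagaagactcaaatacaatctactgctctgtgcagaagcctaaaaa

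The Cd80 probe and the brighter Cd44 probe are shown because the largest genotype differences lay there, and the Cd44 probes from bases 1777 and 1965 because they read the alternatively spliced middle of the gene. The Ly9 probe is the second reading of a gene whose difference turned between experiments.

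No costimulatory gene passed the genotype test. Without a block for the experiment, 0 of the 10 genes had an adjusted p under 0.05 by limma, 0 had an unadjusted p under 0.05, and all had an adjusted p of 0.9996; over all genes 0.0125% were called. With the experiment as a block, 0 of the 10 were called at an adjusted p under 0.05, where 3.33% of all genes were. In that fit 3 of the 10 (Cd80, Icosl and Cd44) had an unadjusted p under 0.05 by limma. Icosl, the weakest of these 3 (p 0.0444), ranked 1588 among the 15969 tested genes. All 10 genes had the same standard error in this fit, 0.348. Its p-values for them therefore follow the size of the difference, not each gene's own spread. The 10 differences ran from -0.70 (Icosl) to 0.88 (Cd44), with a median of 0.23, against 0.08 over all tested genes. They were higher on the array labelled Ackr4ko in both experiments for 4 genes (33% of all tested genes), lower in both for 2 (20.9%) and of opposite sign for 4 (46.1%). By its brightest probe, none of the 10 genes was 2-fold or more apart in a shared direction in each experiment, which 1.79% of all genes were (1.28% higher on arrays labelled Ackr4ko). The arrays of the genotypes did not overlap for 3 genes (29% of all genes), Cd274, Pdcd1lg2 and Cd44.

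**Figure D1:**
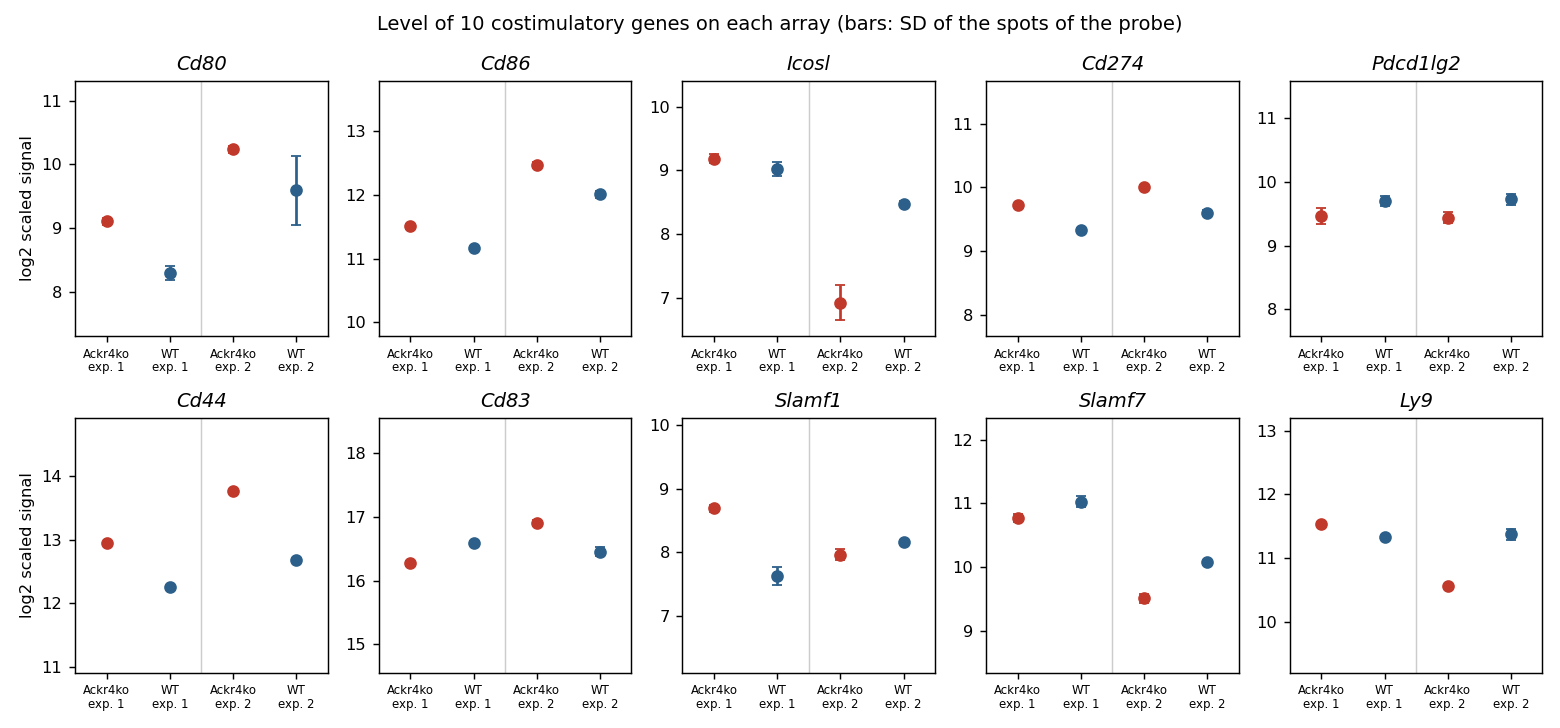
Log2 scaled signal of the brightest tested probe of each of the 10 genes (vertical axes, each spanning the same width) on the 4 arrays, in red for arrays labelled Ackr4ko and blue for WT, with experiment 1 left of the grey line. Bars are the SD of the probe's spots; Cd80 and Cd86 lie higher in experiment 2, and Icosl and Slamf7 lower.

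Cd80, which encodes the ligand with the stronger binding to CTLA-4, was read by a pair of probes 585 transcript bases apart. The 3′ and brighter probe (from transcript base 1457, chr16:38486772-38486831) measured 9.10 (Ackr4ko) and 8.30 (WT) in experiment 1, and 10.24 and 9.59 in experiment 2. Within each experiment the array labelled Ackr4ko was the higher, but the WT array of experiment 2 lay above the Ackr4ko array of experiment 1, so the genotypes overlapped. The difference was 0.81 in experiment 1 and 0.65 in experiment 2, with a mean of 0.73 ± 0.52 (SE, 2 arrays per group; adjusted p 0.9996 by limma, 0.402 with the experiment as a block). Leaving out each array in turn moved the mean between 0.080 and 1.37. On the WT array of experiment 2, 1 of the 4 spots read 1302 where the other three read 600, 606 and 657, which was not flagged.

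The upstream Cd80 probe (from transcript base 872) showed a wider separation. It measured 8.27 (Ackr4ko) and 6.42 (WT) in experiment 1, and 9.51 and 7.13 in experiment 2. Both arrays labelled Ackr4ko lay above both labelled WT, by 1.85 within experiment 1 and 2.38 within experiment 2. Among all tested probes, 1.71% reached 2-fold in a shared direction in each experiment. The mean difference was 2.11 ± 0.47 (SE) with an adjusted p over all 20862 tested probes of 0.349 by limma, so that it did not pass without a block, where 0.024% of probes did. With the experiment as a block the adjusted p was 4.84e-07 (3.17% of probes called), and with that block after quantile normalization it was 0.326. In the block fit before quantile normalization all 16 tested probes of the 10 genes had the same standard error, 0.354. The value of 4.84e-07 therefore follows the size of the difference and not the spread of this probe. On the WT array of experiment 2 only 50% of the spots of this probe were well above background. Without the WT array of experiment 2 the difference was 2.47 and the adjusted p 0.0214, and without the Ackr4ko array of that experiment it was 1.50. The fit of every probe was planned, and the block and other settings of this probe were added after its size was seen.

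The gap between the Cd80 probes therefore differed between arrays. The upstream probe lay below the 3′ probe by a log2 gap of -0.83 (Ackr4ko) and -1.88 (WT) in experiment 1, and of -0.73 and -2.46 in experiment 2. The gap was 1.04 narrower on the array labelled Ackr4ko in experiment 1 and 1.73 narrower in experiment 2, and 0.736% of 4893 pairs of probes of a gene reached a 2-fold change of the gap in a shared direction in each experiment. With the median of the spots in place of their mean the changes were 1.04 and 1.55, and with normexp background correction 0.47 and 1.26, so that the change in experiment 1 was then under 2-fold. Which transcript forms of Cd80 were present was not tested.

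Cd86, the ligand that B cells show first after activation, was higher on the array labelled Ackr4ko in each experiment by about the size of its error. Its tested probe (chr16:36603961-36604020) measured 11.51 (Ackr4ko) and 11.17 (WT) in experiment 1, and 12.47 and 12.01 in experiment 2, so the experiments stood further apart than the genotypes. The differences of 0.34 and 0.46 gave a mean of 0.40 ± 0.44 (SE). The mean was -0.082 without the Ackr4ko array of experiment 2 and -0.025 without the WT array of experiment 1. A second Cd86 probe, 34918 genomic bases away (chr16:36569043-36569102), was well above background on 1 array only, labelled Ackr4ko in experiment 1.

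Icosl, which encodes ICOS ligand, had the lowest mean difference of the 10 genes, and 1 array set it. Its tested probe (chr10:77542211-77542270) measured 9.18 (Ackr4ko) and 9.03 (WT) in experiment 1, and 6.93 and 8.48 in experiment 2. The array labelled Ackr4ko in experiment 2 stood alone below the others, with a signal of 96.7 against 345 to 787 before scaling, and its 4 spots were all well above background. The difference was 0.15 in experiment 1 and -1.55 in experiment 2, with a mean of -0.70 ± 0.64 (SE); without that array it was 0.43. The second Icosl probe (chr10:77545941-77546001), designed on an alternative transcript, was not well above background on any array.

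Cd274, which encodes PD-L1, had the genotype difference that varied least between the experiments, among the 10 genes. It measured 9.73 (Ackr4ko) and 9.33 (WT) in experiment 1, and 10.01 and 9.60 in experiment 2 (chr19:29462363-29462422). The differences of 0.40 and 0.41 gave a mean of 0.40 ± 0.33 (SE), and both arrays labelled Ackr4ko lay above both labelled WT. That order held for 2 of the 10 genes, Cd274 and Cd44, and for 19% of all tested genes.

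Pdcd1lg2, which encodes PD-L2, lay the other way. Its brightest probe (chr19:29545470-29545529) measured 9.47 (Ackr4ko) and 9.70 (WT) in experiment 1, and 9.44 and 9.72 in experiment 2. The values ranged over 0.29 in all, the narrowest range of the 10 genes, and both arrays labelled WT lay above both labelled Ackr4ko, with a mean difference of -0.26 ± 0.32 (SE). The second Pdcd1lg2 probe (chr19:29545473-29545532) shares 57 bases with it and differs there by T50C and A55G, counted from 1 at the 5′ end of the second probe, whose base is written first. It gave -0.24 and -0.23 in the experiments, which is close to a repeat reading of the same site and not independent of the first.

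Cd44 had the largest mean difference of the 10 genes by its brightest probe. The probe from transcript base 2614, which reads the cytoplasmic end of the protein, measured 12.95 (Ackr4ko) and 12.26 (WT) in experiment 1, and 13.76 and 12.69 in experiment 2. Both arrays labelled Ackr4ko lay above both labelled WT, by 0.68 in experiment 1 and 1.08 in experiment 2. The mean was 0.88 ± 0.39 (SE), with an unadjusted p of 0.0505 and an adjusted p of 0.9996 by limma, and an adjusted p of 0.204 with the experiment as a block. Without the Ackr4ko array of experiment 2 the mean was 0.47, and without that of experiment 1 it was 1.29.

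The other Cd44 probes had smaller mean differences in the same direction. The probe 2880 bases further 3′ (from base 5494, chr2:102651398-102651457) measured 12.32 (Ackr4ko) and 11.88 (WT) in experiment 1, and 12.07 and 11.86 in experiment 2. It differed by 0.44 and 0.21, so the experiments ranked in the other order than with the probe from base 2614. Of the probes in the alternatively spliced middle, the one from base 1777 measured 7.43 (Ackr4ko) and 6.49 (WT) in experiment 1 and 7.60 and 7.34 in experiment 2. Its difference was 0.95 in experiment 1 and 0.26 in experiment 2, where 1 of the 4 spots on the WT array, at 9.74, was flagged as an outlier and left out. The probe from base 1965 measured 5.92 (Ackr4ko) and 5.46 (WT) in experiment 1 and 5.99 and 5.52 in experiment 2. It was not well above background on the WT array of experiment 2, so its value there is a reading near background. All 4 Cd44 probes were higher on the array labelled Ackr4ko in both experiments, and none of the 4 passed the test with or without the block. No gap between the brightest Cd44 probe and the others reached a 2-fold change in a shared direction in each experiment.

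**Figure D2:**
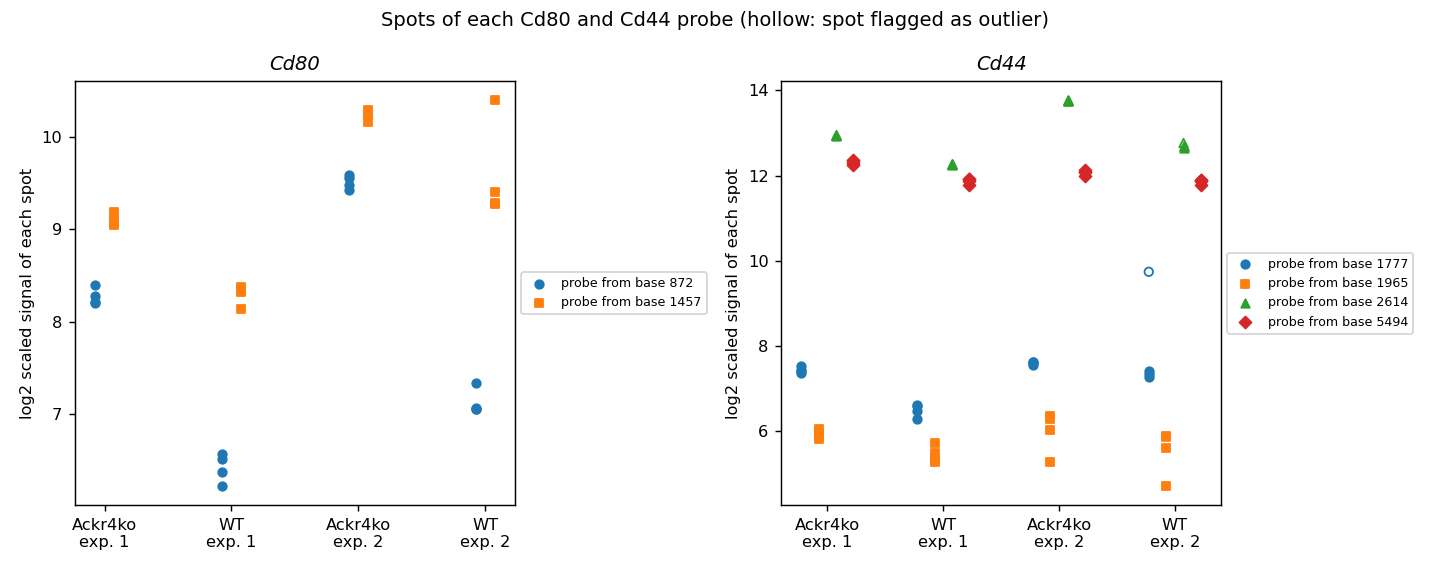
Log2 scaled signal of every spot (vertical axes) of each Cd80 probe and each Cd44 probe on the 4 arrays, with hollow symbols for spots flagged as outliers and left out. The Cd80 probe from base 872 lies 1.85 and 2.38 higher on the arrays labelled Ackr4ko, and 1 spot of the other Cd80 probe stands apart on the WT array of experiment 2.

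Cd83 did not keep a direction. It measured 16.27 (Ackr4ko) and 16.59 (WT) in experiment 1, and 16.91 and 16.46 in experiment 2 (chr13:43898276-43898335). The difference was -0.32 in experiment 1 and 0.46 in experiment 2, with a mean of 0.07 ± 0.35 (SE) that became -0.074 after quantile normalization. Its spots were bright on every array and none was saturated.

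Slamf1, which encodes a self-binding receptor of lymphocytes, was separated in experiment 1 only. It measured 8.69 (Ackr4ko) and 7.63 (WT) in experiment 1, and 7.97 and 8.17 in experiment 2 (chr1:173730343-173730402). The difference of 1.06 in experiment 1 met -0.20 in experiment 2, and the mean was 0.43 ± 0.38 (SE). It was 0.065 without the Ackr4ko array of experiment 1 and 0.16 without the WT array of that experiment. Its highest and lowest arrays of the 4 both came from experiment 1.

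Slamf7, which encodes a SLAM receptor found on plasma cells and activated B cells, stood apart by experiment. It measured 10.77 (Ackr4ko) and 11.02 (WT) in experiment 1, and 9.51 and 10.07 in experiment 2 (chr1:173562534-173562593). It was lower on the array labelled Ackr4ko by 0.25 and 0.57, with a mean difference of -0.41 ± 0.50 (SE). The mean was 0.22 without the Ackr4ko array of experiment 2 and 0.067 without the WT array of experiment 1.

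Ly9 was read by 2 probes that gave the same pattern. The brightest (chr1:173518744-173518790), whose 60 bases cross a splice junction, measured 11.54 (Ackr4ko) and 11.33 (WT) in experiment 1, and 10.56 and 11.37 in experiment 2. The second, from base 1925, measured 10.80 (Ackr4ko) and 10.55 (WT) in experiment 1, and 9.69 and 10.61 in experiment 2. With both probes the array labelled Ackr4ko in experiment 2 was the lowest, and the differences were 0.21 and -0.81 for the first and 0.25 and -0.92 for the second. The mean of the first was -0.30 ± 0.40 (SE), and 0.19 without that array.

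**Figure D3:**
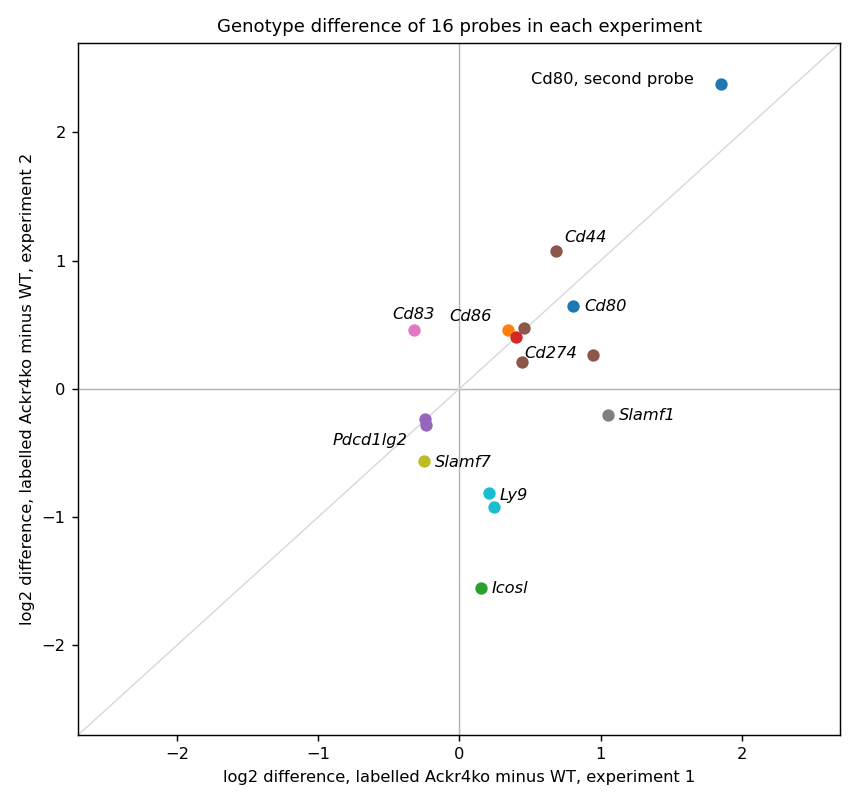
Log2 difference, labelled Ackr4ko minus WT, of the 16 tested probes in experiment 1 (horizontal) and experiment 2 (vertical), 1 colour per gene, with the diagonal marking equal differences. The upstream Cd80 probe lies at 1.85 and 2.38, and Icosl, Ly9, Slamf1 and Cd83 lie where the experiments have opposite signs.

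The same levels were compared between the experiments, which differed in donors and, by the titles, in date. The arrays of the experiments did not overlap for 4 of the 10 genes, where 47.7% of all tested genes did not overlap. Cd80 and Cd86 were higher in both arrays of experiment 2, and Icosl and Slamf7 in both arrays of experiment 1 (24.1% of all genes). The difference, experiment 2 minus 1, was 1.21 ± 0.38 (SE) for Cd80, 0.90 ± 0.30 for Cd86, -1.40 ± 0.50 for Icosl and -1.11 ± 0.31 for Slamf7. By limma without a block 0 of the 10 genes passed (adjusted p from 0.504 to 0.995, with 0% of all genes called). These 4 genes shared the lowest adjusted p, 0.504.

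With genotype as a block, 3 of the 10 genes passed, where 4.07% of all genes did. All 10 again had the same standard error, 0.348, so these p-values too follow the size of the difference. Cd80 rose in experiment 2 (adjusted p 0.0190 by limma), while Icosl (0.00376) and Slamf7 (0.0391) fell. After quantile normalization the same fit called none of the 10 genes and 0 genes in all, with adjusted p of 0.321 (Cd80 and Slamf7) and 0.350 (Icosl). Without the Ackr4ko array of experiment 2 the Icosl difference was -0.63, and without the WT array of that experiment it was -2.18. Icosl was thus lower in experiment 2 on the array labelled WT as well, at 8.48 against 9.03.

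**Figure D4:**
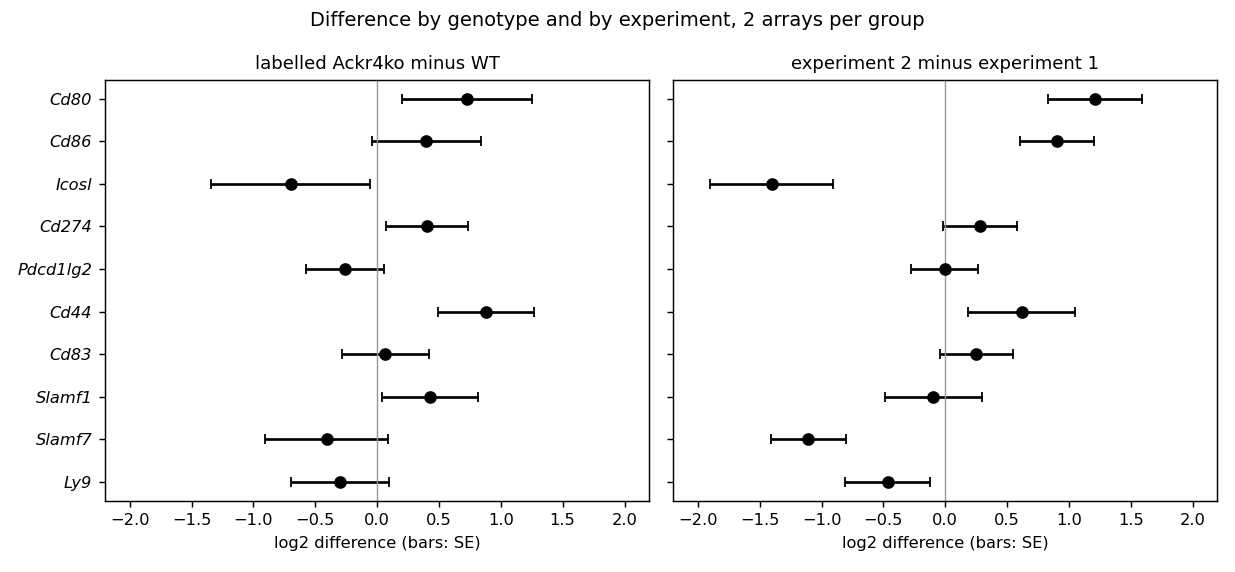
Log2 difference of the 10 genes between arrays labelled Ackr4ko and WT (left) and between experiment 2 and experiment 1 (right), 2 arrays per group, with bars for the SE from limma without a block. Cd44 has the largest genotype difference at 0.88, and Icosl the largest experiment difference at -1.40.

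Promoters were examined because the experiments did not overlap for Cd80, Cd86, Icosl and Slamf7. Non-overlap was not particular to these genes, as 47.7% of all tested genes showed it. RefSeq promoter windows of GRCm38.p6, mostly upstream of each gene's start, were matched for 7 of the 10 genes, without Cd86, Cd83 and Ly9. Each window was searched on both strands for the AP-1 site TGANTCA, the GAS site TTCNNNGAA of STAT factors, an interferon response core and an NF-kappaB site. The AP-1 letters occurred in 2 of the 7, Cd80 and Slamf7, and in 7.81% of all 32851 promoters. The other motifs occurred in 0 of the 7, and in 8.3%, 3.44% and 1.47% of all promoters in the order given. Both AP-1 matches began 42 bases upstream of the start, and are shown with the match in capitals and 10 bases on each side.
Cd80 promoter, chr16:38458881-38458907, plus strand: ggccacacccTGATTCAgaactctcac
Slamf7 promoter, chr1:171649025-171649051, minus strand: aaacgtgagaTGACTCAttgtaacaag

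A match describes the letters only, and binding was not measured. Cd80 was the higher in experiment 2 and Slamf7 the lower. Whether the site has a part in either difference was not tested.

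Of the 9 genes listed as other B7 and butyrophilin ligands, 6 were tested. The list also holds genes of neither family, Nectin2 among them. Only Nectin2, which encodes a ligand of the receptors TIGIT and CD226, had an adjusted p under 0.05 with the experiment as a block, and it passed the detection filter only through the arrays labelled Ackr4ko. Nectin2 measured 5.43 (Ackr4ko) and 3.59 (WT) in experiment 1, and 7.12 and 5.38 in experiment 2. It was well above background on both arrays labelled Ackr4ko and on none labelled WT, so the call sets a signal against readings near background. With the mean of the bright arrays set against the lowest signal well above background of any probe on each dim array, it was 2.29-fold higher. This is not a firm lower bound.

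Of the receptors for these ligands, which T cells carry and activated B cells express in part, 4 of 7 were tested and 0 were called. Pdcd1, which encodes PD-1, measured 12.21 (Ackr4ko) and 11.88 (WT) in experiment 1, and 13.36 and 12.44 in experiment 2, a mean difference of 0.63. Ctla4 differed by 1.16 in experiment 1 and by -0.38 in experiment 2. Icos and Cd160 were well above background on no array.

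Of the other SLAM family members and their adaptors, 5 of 9 were tested and 0 were called, with a median of -0.14. Slamf9 had the largest difference of them, -0.84 in experiment 1 and -0.78 in experiment 2. It measured 12.80 (Ackr4ko) and 13.63 (WT), then 13.35 and 14.13, so that both arrays labelled WT lay above both labelled Ackr4ko. Slamf6 differed by 0.13 and -0.45. The gene of the SAP adaptor, Sh2d1a, which T cells use, was well above background on no array.

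Of the CD44 ligands and linkers, 8 of 11 were tested and 0 were called, with a median of 0.00. Srgn, whose proteoglycan serglycin binds CD44, differed by 0.54 and 0.76, and Mif, whose product signals through CD74 and CD44, by 0.51 and 0.71. The genes around CD83 (the ubiquitin ligases that remove CD86 and MHC class II, and the class II genes themselves) were all 11 tested, and 0 were called. None of the 11 was higher in both experiments (33% of all genes were), 4 were lower in both (20.9% of all genes), and the median was -0.22. H2-Ob differed by -0.21 and -0.80, and H2-DMb2 by -0.20 and -0.58.

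The regulators of PD-L1 were all 10 tested, and 0 were called, with a median of -0.03. Stat3, which encodes a transcription factor downstream of cytokine receptors, measured 13.95 (Ackr4ko) and 13.17 (WT) in experiment 1, and 13.95 and 12.88 in experiment 2. Its mean difference was 0.92 ± 0.33 (SE), with an adjusted p of 0.868 by limma and 0.160 with the block. Cmtm4, whose product keeps PD-L1 from degradation, differed by 0.21 and 0.51.

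Of the costimulatory ligands of the TNF family, which act beside the B7 ligands, Cd70, Tnfsf9 and Tnfsf18 were called with a block. All 7 were tested, and with the experiment as a block 2 rose and 1 fell on the arrays labelled Ackr4ko. Of all genes 3.33% were called in either direction in that fit, and 2.04% rose. Cd70, the ligand of CD27, measured 12.87 (Ackr4ko) and 11.44 (WT) in experiment 1, and 15.15 and 11.90 in experiment 2. Its differences of 1.43 and 3.24 exceeded 2-fold in each experiment. Tnfsf9, the ligand of 4-1BB, differed by 0.59 and 2.19 (adjusted p 0.00352 by limma with the block). Tnfsf18, the ligand of GITR, differed by -0.77 and -1.69 (0.0167).

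Among the other activation markers, all 8 were tested and 1 rose with the block. Fas, which encodes the death receptor CD95, measured 13.14 (Ackr4ko) and 12.13 (WT) in experiment 1, and 13.85 and 12.37 in experiment 2, a difference of 1.01 and 1.49. Over the 8 lists, 5 of the 59 tested genes were called with the block, where 3.33% of all genes were, and 0 without it. Of these 5, Nectin2 was above background in 1 genotype only and the other 4 in both. Their p-values in the block fit ranked by the size of the mean difference, from Cd70 (2.34) to Tnfsf18 (-1.23). After quantile normalization the fit with the block called 0 of all 15969 genes.

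**Figure D5:**
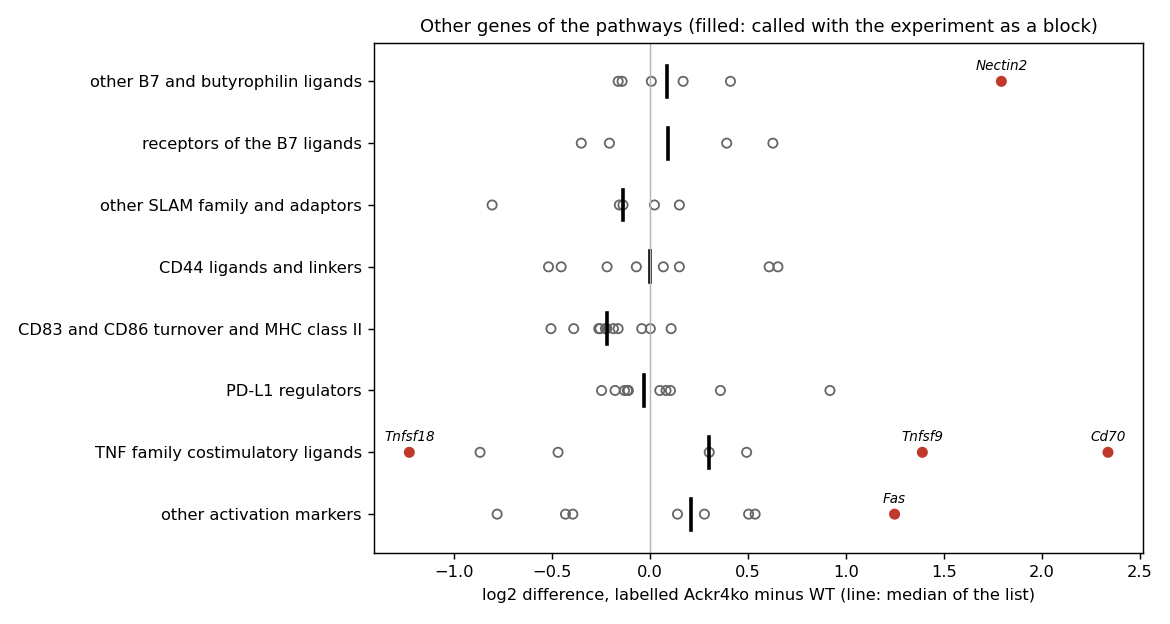
Log2 difference, labelled Ackr4ko minus WT, of each tested gene of the 8 lists (1 row per list), with filled symbols for genes called with the experiment as a block and a black line at each list's median. The 5 filled genes are Nectin2 (above background on arrays labelled Ackr4ko only), Tnfsf18, Tnfsf9, Cd70 and Fas.

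Costimulatory ligands are also made by dendritic cells and macrophages, whose part in the levels above was not tested. Of 12 dendritic cell markers, 6 were tested and the other 6 (Itgax, Xcr1, Clec9a, Cd209a, Clec10a and Ly75) were well above background on no array. Of the 6 tested, 4 were well above background on all arrays: Flt3 differed by 1.30 and 0.84, Zbtb46 by 0.66 and 1.33, Ccr7 by -0.07 and 0.48 and Siglech by -0.21 and 0.20. Batf3 and Fscn1 passed the filter only through the arrays labelled Ackr4ko, with neither well above background on an array labelled WT. Reckoned as for Nectin2, they were 2.59-fold and 2.40-fold higher there, which is not a firm lower bound. Of the 4 above background on all arrays, Flt3 and Zbtb46 were higher on the array labelled Ackr4ko in both experiments (33% of all tested genes). Ccr7 and Siglech had opposite signs (46.1%). The mean differences were 1.07 (Flt3), 1.00 (Zbtb46), 0.20 (Ccr7) and -0.01 (Siglech). Batf3 and Fscn1 are left out of this, since they entered the tests only through the arrays where they were high. Of the 6, 0 were called by limma without a block. The summed signal of the tested dendritic cell markers came to 99146 (Ackr4ko) and 102806 (WT) in experiment 1. In experiment 2 it came to 148226 and 115155, so the groups overlapped in this sum. Ccr7 and Siglech, the brightest of the 6 (levels from 15.15 to 16.15), weigh most in it.

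Of 9 macrophage and monocyte markers, Lyz2, Fcgr1, Cd14 and Mertk were well above background on no array. Of the 5 tested, Cd68 differed by 0.85 and 0.18 and Mpeg1 by -0.46 and -1.09. Of 6 T cell markers, 5 were tested. Cd3g differed by -0.22 and -0.72, Cd3e by 0.004 and 0.17, Cd3d by 0.23 and -0.21 and Cd4 by -0.19 and 0.33. Thy1 was well above background on 1 array of each genotype, so no difference is given for it, and Cd8a on no array. All 5 plasma cell markers were tested, with Irf4 at 0.12 and 0.75 and Sdc1 at 0.12 and -0.90, and of 5 NK cell markers 1 was tested, Prf1, at -0.02 and 0.69. Of the 10 B cell markers 3 were lower on the array labelled Ackr4ko in both experiments, 1 was higher in both and 6 had opposite signs, with a median of 0.12 in experiment 1 and -0.28 in experiment 2. Cd79b differed by -0.35 and -0.33, Ms4a1 by -0.45 and -0.23, and Ebf1, the marker higher in both, by 0.24 and 0.38. Their summed signal came to 366824 (Ackr4ko) and 436090 (WT) in experiment 1. In experiment 2 it came to 328836 and 401958, again lower on the array labelled Ackr4ko. Cd79b and Ms4a1, the brightest of the 10 (levels from 16.72 to 17.41), weigh most in this sum. The macrophage and monocyte sum was lower on those arrays too, at 45078 against 53492 and 36002 against 57322. Mpeg1, the brightest of those 5 tested (levels from 14.00 to 15.11), weighs most in that sum. Of those 5, 2 were lower in both experiments (20.9% of all genes), 1 was higher in both (33%) and 2 had opposite signs (46.1%). On the array labelled Ackr4ko the dendritic, plasma, T and NK cell sums were lower in experiment 1 and higher in experiment 2.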

How the data were processed

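The 4 scanner files hold 1-colour (Cy3) arrays with 39429 probes of 4 spots each. Per the file headers the deposited intensity is Feature Extraction's background-corrected processed signal; per the submitters' processing notes the program was Agilent Feature Extraction 10.7.3.1. Labelling started from 50 ng of RNA, per the labels. The authors' value table, deposited as a linear intensity with a lowest value of 15, served as an alternative; how it was normalized is not given in the sources used here.

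Spots flagged as outliers were left out, log2 signals were scaled to each array's 75th percentile and spots were averaged. A probe entered the tests where 50% or more of its spots were flagged as well above background on 2 or more arrays, and a gene took its brightest tested probe. Old gene names were updated through RefSeq accessions, which named 28328 probes. The comparisons of genotype and of experiment used limma 3.58.1 (R 4.3.3) without a block, with Benjamini-Hochberg adjustment over all genes (threshold 0.05), and the code was tested on simulated data. Titles put 1 array of each genotype in each experiment, and arrays of an experiment deviated together (r = 0.42 across genes), so the experiment as a block was fitted too. The number of arrays limits the precision.

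The members and lists were chosen with earlier results of these data known. The text names every member with all its probes, Ackr4, and of each other list the genes called with or without the block, or else the 2 with the smallest p; untested or undetected genes are named beside these. Flt3, Zbtb46, Ccr7, Siglech, Ebf1, Cd3e, Cd3d and Cd4 were named after their values were seen.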

Additional observations from a re-analysis of the deposited data

Results flagged for a closer look

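For 4 of the 10 genes the difference, labelled Ackr4ko minus WT, had opposite signs in the 2 experiments; that the experiments differ in it was not tested, and with 1 array per genotype and experiment it cannot be. Opposite signs occurred in 46.1% of all tested genes. Icosl differed by 0.15 in experiment 1 and by -1.55 in experiment 2. Slamf1 differed by 1.06 and then by -0.20. Ly9 differed by 0.21 and then by -0.81. Cd83 differed by -0.32 and then by 0.46.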

How the results depend on the processing

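By their gene values, none of the 10 genes was called by genotype under any alternative run. This includes the replicate block (0 of 10, with 532 of all genes called, against 2 without it) and the replicate block after quantile normalization (0 of 10, 0 of all), which was chosen after seeing the data, as were the median of the spots, the settings of the Cd80 probe and genotype as a block after quantile normalization. Over all genes median scaling called 188 and moved the median genotype difference from 0.08 to 0.27, normexp called 20, the authors' value table and quantile normalization 1 each, and leaving out an array 1 to 123. The count of genes reaching 2-fold in a shared direction in each experiment was 1 (Cd80) with the mean of the tested probes and with every probe on its own, against 0. The count of list genes called was 5 with the replicate block (4 of them above background in both genotypes), and the count called between experiments was 3 with genotype as a block.

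Quantile normalization turned Cd83 by genotype to -0.074 (also with the replicate block), and by experiment Cd83 to -0.062 and Pdcd1lg2 to 0.053 (also with genotype as a block). The authors' value table under its own labels turned the genotype differences to -0.35 (Cd274), -0.74 (Cd44), -0.77 (Cd80), -0.28 (Cd86), 0.76 (Icosl), 0.38 (Ly9), 0.31 (Pdcd1lg2), -0.39 (Slamf1), 0.49 (Slamf7) and -2.09 (the upstream Cd80 probe), and by experiment gave -0.062 (Cd83) and 0.064 (Pdcd1lg2). Its columns match the arrays labelled with the other genotype.

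Leaving out each array in turn, the genotype difference ran from -0.25 to 0.39 (Cd83), -0.082 to 0.88 (Cd86), -1.83 to 0.43 (Icosl), -0.79 to 0.19 (Ly9) and -1.04 to 0.22 (Slamf7). The experiment difference ran from -0.62 to 0.43 (Slamf1) and -0.15 to 0.14 (Pdcd1lg2). The upstream Cd80 probe passed with median scaling (2.30, adjusted p 0.00143), the block (2.11), the block after normexp (1.46, adjusted p 4.74e-05) and without the WT array of experiment 2 (2.47). It did not pass under 9 other settings, where it ran from 1.46 to 2.73. The causes were not tested.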
